A study of Mus musculus with 4 samples.

Results

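The genes described here are 8 calcium/calmodulin-dependent protein kinase (CaM kinase) genes: Camk2a, Camk2b, Camk2d, Camk2g, Camk4, Camk1d, Camkk1 and Camkk2. They were chosen by symbol and are 8 of the 43348 genes in the count matrices. All 8 were found in each matrix, and all 8 passed the filter on low counts in the main fit of every comparison.

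Calcium that enters a neuron through NMDA receptors or voltage-gated channels binds calmodulin, and calcium-loaded calmodulin switches on these kinases. CaMKII is a large holoenzyme built from alpha, beta, delta and gamma subunits, each the product of its own gene, and it is best known from the postsynaptic density of excitatory neurons. The CaM kinase kinases, from Camkk1 and Camkk2, phosphorylate and activate CaMKIV, the largely nuclear kinase from Camk4, and the CaMKI enzymes, 1 of which comes from Camk1d.

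The cells were sorted for TdTomato from frontal cortex and hippocampus of male and female juvenile mice at postnatal day 18 to 20 and were sequenced as droplet 3′-end libraries. The 2 genotypes were compared in each region. Wild-type (WT) mice were littermates with 2 intact Grin1 alleles (Nkx2-1-Cre, Ai14, Grin1 wt/wt), and null mice carried floxed Grin1 on both alleles (Nkx2-1-Cre, Ai14, Grin1 fl/fl). Grin1 encodes the obligate NMDA receptor subunit. Both genotypes carried the Cre driver and the reporter, so neither shows the effect of Cre itself. Cre came from the Nkx2-1 promoter, which is active in the medial ganglionic eminence, and the reporter marks every descendant of a cell that once expressed it, whatever the cell became. Mice of a genotype were pooled within a session, both regions were dissected from the same brains, and the dissociation buffers held blockers of sodium channels, of NMDA receptors and of transcription.

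There were 10 libraries: 3 WT and 2 null for each of the 2 regions. The matrices held 26987 cells, of which 26201 were kept. The WT cortex libraries held 9306756, 14212183 and 28057207 UMIs (unique molecular identifiers, 1 for each captured transcript), and the WT hippocampus libraries 10555408, 8782181 and 20639002. The null libraries held 1488601 and 25688337 UMIs in cortex and 3856745 and 47338167 in hippocampus. Null cortex replicate 1 was the smallest library, with 177 kept cells. Replicate 2 stood apart among the WT libraries. Its median UMIs per kept cell were 2912 in cortex and 1479 in hippocampus, against 4411 to 7098 in the other WT libraries. In the null libraries the medians lay between 6684 and 9763. Replicate 1 was made with an earlier version of the chemistry (v2) than replicates 2 and 3 (v3), and the null genotype had no replicate 3. Any 2 libraries shared at most 12 cell barcodes (WT cortex 2 and WT hippocampus 2).

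Cells were grouped by clusters that were named from marker genes, and each class name ends in "-like" because it rests on those markers alone. The SST-like (somatostatin) class held 6682 cells, with 813 of them in a Th-marked cluster, the PVALB-like (parvalbumin) class 2200 and the NGFC-like (neurogliaform) class 2178. A cluster could take these names only with at least 3 of 4 interneuron markers, Gad1 and Gad2 among the 4. The UMIs of these markers in the 3 classes follow from that rule and are no check of the names. The sort also carried cells that are not interneurons, and these served as reference points: 1009 glutamatergic-like, 8729 oligodendrocyte-like, 3302 oligodendrocyte precursor-like, 431 astrocyte-like and 263 microglia-like cells. Members and pathway genes were left out of the features that made the clusters. UMIs were summed per library and class wherever a class had at least 10 cells, and levels are given as CPM, the UMIs of a gene scaled to the same total in every sum.

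In GENCODE vM21 (GRCm38) the 4 CaMKII genes lie on separate chromosomes, Camk2a on that of Camk4 and Camk2b on that of Camkk1. The CaMKII genes were Camk2a (ENSMUSG00000024617.12, chromosome 18, 60925618 to 60988152, plus strand), Camk2b (ENSMUSG00000057897.10, chromosome 11, 5969644 to 6066362, minus strand), Camk2d (ENSMUSG00000053819.12, chromosome 3, 126596302 to 126846326, plus strand) and Camk2g (ENSMUSG00000021820.12, chromosome 14, 20734875 to 20794088, minus strand). The upstream kinases were Camkk1 (ENSMUSG00000020785.13, chromosome 11, 73019008 to 73042073, plus strand) and Camkk2 (ENSMUSG00000029471.9, chromosome 5, 122731170 to 122779409, minus strand). Their targets were Camk4 (ENSMUSG00000038128.6, chromosome 18, 32934931 to 33191228, plus strand) and Camk1d (ENSMUSG00000039145.12, chromosome 2, 5293457 to 5714515, minus strand). No measured gene overlapped Camk2b, Camk2g, Camkk1 or Camkk2. On the same strand, 2 microRNA genes (Mir7220 and Mir6982) overlapped Camk2a, and the other overlaps, with Camk2d, Camk4 and Camk1d, were on the opposite strand.

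All 4 CaMKII genes were measured in the interneurons, and the neuronal enrichment differed between subunits. Camk2a and Camk2b were neuronal: they were highest in glutamatergic-like cells, intermediate in the 3 interneuron classes and low in glia. Camk2d and Camk2g were shared with glia, with Camk2d as high in microglia-like as in NGFC-like cells and Camk2g at its highest mean in astrocyte-like cells. A 3′-end UMI counts a transcript once whatever its length, so CPM can be set side by side between genes, although genes may differ in how well their ends are captured.

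Camk2a, the alpha subunit that dominates in forebrain excitatory neurons, was at 520.1 ± 231 CPM (SD, n = 5 WT libraries) in glutamatergic-like cells, with a lowest, median and highest library of 297, 527 and 877 CPM. In NGFC-like cells its level was 119 ± 66.2 CPM (n = 6), from 35.9 to 207 CPM with a median of 99.8. The glutamatergic-like libraries all lay above every interneuron library. PVALB-like cells followed at 90.05 ± 47.03 CPM (lowest, median and highest 42.96, 74.9 and 167 CPM) and SST-like cells at 77.4 ± 28.7 CPM (lowest, median and highest 51.8, 68.9 and 126 CPM). These 3 interneuron classes overlapped, and the order of their means lay within the spread of the libraries. All glial libraries lay below them, with means of 11.8 CPM in microglia-like (n = 4), 8.45 in astrocyte-like, 4.500 in oligodendrocyte precursor-like and 1.81 in oligodendrocyte-like cells (n = 6 each).

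The spread of Camk2a followed the libraries. In SST-like cells the WT cortex libraries read 51.8, 94.8 and 75.6 CPM for replicates 1, 2 and 3, and the WT hippocampus libraries 62.2, 126 and 53.98. In PVALB-like cells the same libraries read 42.96, 125 and 71.03 CPM in cortex and 78.8, 167 and 55.5 in hippocampus. NGFC-like cells gave 35.9, 189 and 109 CPM in cortex and 90.6, 207 and 81.2 in hippocampus. Replicate 2, which had the fewest UMIs per cell, was the highest of the 3 libraries in each class and region. What depth contributes to these values was not tested. Camk2b did not share that pattern, since replicate 2 was its lowest library in hippocampus in all 3 classes.

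Camk2b, whose beta subunit anchors the holoenzyme to actin, reached 396 ± 103 CPM (n = 5) in glutamatergic-like cells, with a lowest, median and highest library of 278, 423 and 526 CPM. The interneuron classes lay together below all of these libraries, at 135 ± 33.9 CPM in SST-like, 131 ± 29.96 CPM in NGFC-like and 123 ± 23.5 CPM in PVALB-like cells (n = 6 each). Lowest, median and highest values were 93.6, 138 and 179.9 CPM in SST-like, 83.4, 131 and 176 CPM in NGFC-like and 89.9, 127 and 147 CPM in PVALB-like cells. The 3 ranges overlapped almost completely. Glial means were 18.3 CPM (microglia-like), 13.7 (astrocyte-like), 7.62 (oligodendrocyte precursor-like) and 2.80 (oligodendrocyte-like), all below the lowest interneuron library.

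Camk2d, the delta subunit best known from heart, ranked highest in NGFC-like cells at 167 ± 50.9 CPM (lowest, median and highest 107, 166 and 222 CPM, n = 6). Microglia-like cells stood beside them at 165 ± 36.8 CPM (n = 4), and the 2 ranges overlapped. PVALB-like cells had 99.7 ± 15.4 CPM (lowest, median and highest 82.1, 96.7 and 123 CPM) and SST-like cells 81.5 ± 10.9 CPM (67.5, 83.3 and 92.5 CPM). Every NGFC-like library lay above every SST-like library. Glutamatergic-like libraries were scattered from 0 to 221 CPM. The 0 came from WT hippocampus 2, where the class had 13 cells and 17105 UMIs. Astrocyte-like cells averaged 64.6 CPM, oligodendrocyte precursor-like cells 26.1 and oligodendrocyte-like cells 8.52, and only the step to oligodendrocyte-like cells was free of overlap.

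Camk2g, which encodes the gamma subunit, averaged 229.6 ± 96.2 CPM in astrocyte-like cells (n = 6), with a lowest, median and highest library of 74.6, 255 and 353 CPM. Glutamatergic-like cells followed at 149 ± 75.6 CPM (n = 5). Interneurons came next in the order PVALB-like (134 ± 29.1 CPM), SST-like (123 ± 11.01 CPM) and NGFC-like (101 ± 10.2 CPM), n = 6 each. Neighbours in this order overlapped down to the NGFC-like class. Below it there was a gap: the highest library of the other glia was 39.9 CPM, and the lowest NGFC-like library 84.3 CPM. Means there were 21.5 CPM in oligodendrocyte precursor-like, 12.2 in microglia-like and 7.69 in oligodendrocyte-like cells.

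**Figure D1:**
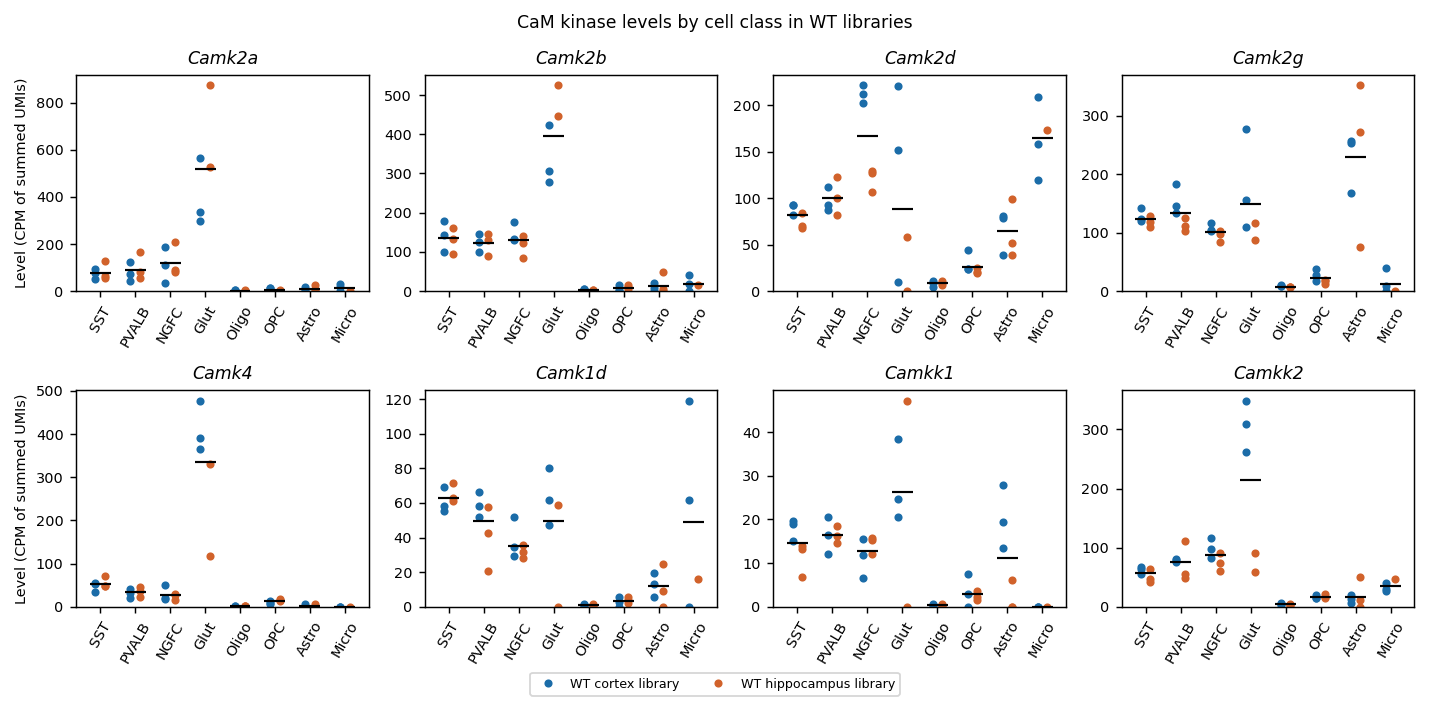
Level of each CaM kinase gene (CPM of summed UMIs) in 8 cell classes (Glut, glutamatergic; Oligo, oligodendrocyte; OPC, oligodendrocyte precursor; Astro, astrocyte; Micro, microglia; all "-like"), with 1 point for each WT library, cortex in blue and hippocampus in orange, and the mean as a bar. Camk2a, Camk2b and Camk4 are highest in glutamatergic-like cells (means 520.1, 396 and 336 CPM), while Camk2d and Camk2g reach glial levels of 165 CPM (microglia-like) and 229.6 CPM (astrocyte-like).

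Set against each other, the 4 genes took shares of the CaMKII UMIs that varied between the classes. In glutamatergic-like cells Camk2a supplied 43.6% ± 10.5 of the CaMKII UMIs (SD over 5 WT libraries) and Camk2b 34.5%, leaving 13.6% to Camk2g and 8.27% to Camk2d. In SST-like cells Camk2b (32.2% ± 6.995) and Camk2g (29.6%) led, ahead of Camk2d (19.5%) and Camk2a (18.7%). PVALB-like cells had nearly the same split, with Camk2g at 30.02% ± 6.44, Camk2b at 27.7%, Camk2d at 22.3% and Camk2a at 19.9%. In NGFC-like cells Camk2d had the highest mean share, at 31.8% ± 6.55, before Camk2b (25.6%), Camk2a (22.8%) and Camk2g (19.8%). It led in all 3 cortex libraries but in only 1 of the 3 hippocampus ones, with Camk2b ahead in replicate 1 (30.7% against 27.9%) and Camk2a in replicate 2 (43% against 22.2%). Over the 6 WT libraries the Camk2a share of NGFC-like cells ran from 6.79% to 43%, so the order within that class is less certain than the Camk2d share, which ran from 22.2% to 40.1%. Among glia, 1 gene dominated in 2 classes: Camk2g with 70.1% ± 21.3 in astrocyte-like cells (n = 6) and Camk2d with 79.4% ± 14.1 in microglia-like cells (n = 4).

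**Figure D2:**
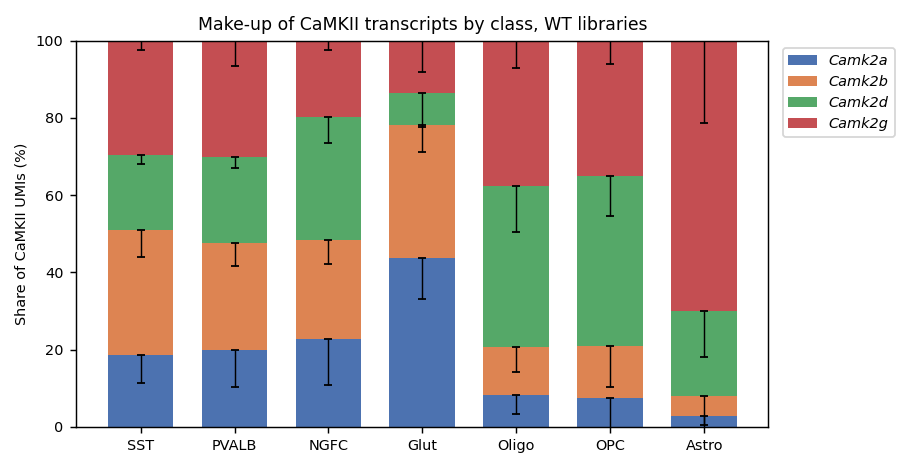
Share of the CaMKII UMIs (%) that each of the 4 genes gave in 7 classes, as stacked means over WT libraries with the SD drawn downward from the top of each segment. Camk2a takes 43.6% in glutamatergic-like cells and 18.7% in SST-like cells, and Camk2g takes 70.1% in astrocyte-like cells.

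Of the CaM kinase kinases and their targets, Camk4 shared the glutamatergic lead of Camk2a, Camkk2 did so in cortex, Camk1d was similar in most neurons, and Camkk1 was low throughout. Camkk2, the kinase kinase that also activates AMP-activated protein kinase, averaged 214 ± 131 CPM in glutamatergic-like cells (n = 5), with a lowest, median and highest library of 58.5, 262 and 349 CPM. The cortex libraries read 349, 309 and 262 CPM and the hippocampus ones 58.5 and 90.7, which lay within the range of the PVALB-like libraries. The 58.5 came from WT hippocampus 2, with 13 cells and 17105 UMIs in this class, where single UMIs move the value. The hippocampal level therefore rests mainly on WT hippocampus 3. NGFC-like (87.1 ± 19.7 CPM), PVALB-like (75.2 ± 22.03 CPM) and SST-like cells (56.6 ± 10.2 CPM) followed in that order, n = 6 each. Lowest, median and highest libraries were 59.9, 86.8 and 117 CPM in NGFC-like, 48.5, 77.4 and 111 CPM in PVALB-like and 41.9, 59.6 and 67.9 CPM in SST-like cells. Each neighbour in this order overlapped the next, down to microglia-like cells at 35.9 ± 9.60 CPM (n = 4). Oligodendrocyte precursor-like and astrocyte-like cells had means of 17.3 and 16.7 CPM, and oligodendrocyte-like cells 4.42. Camkk1, its paralogue, averaged 26.2 ± 18.1 CPM in glutamatergic-like (n = 5), 16.4 ± 2.97 CPM in PVALB-like, 14.6 ± 4.59 CPM in SST-like and 12.9 ± 3.58 CPM in NGFC-like cells (n = 6). All neuronal classes and the astrocyte-like class (11.1 CPM) overlapped for this gene.

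Camk4, the kinase that phosphorylates CREB in the nucleus, was the member that most set glutamatergic-like cells apart, at 336 ± 134 CPM (n = 5; lowest, median and highest 117, 364 and 477 CPM). SST-like cells had 51.9 ± 12.2 CPM (lowest, median and highest 35.01, 50.5 and 72.4 CPM), PVALB-like cells 33.2 ± 9.75 CPM (20.5, 34.6 and 44.95 CPM) and NGFC-like cells 27.3 ± 12.8 CPM (16.9, 23.8 and 51.4 CPM), n = 6 each. Neighbouring interneuron classes overlapped, and all glutamatergic-like libraries lay above them. The lowest of these, at 117 CPM, was WT hippocampus 2, with 13 cells and 17105 UMIs, where single UMIs move the value. Oligodendrocyte precursor-like cells had a low level of 12.7 ± 3.92 CPM, which overlapped the NGFC-like class and lay above the astrocyte-like (1.94 CPM) and oligodendrocyte-like (1.31 CPM) libraries. Microglia-like cells had 0 UMIs of Camk4 and of Camkk1 among 245121, which allows up to 12.2 CPM of each.

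Camk1d, a CaMKI enzyme, had, like Camk2d, its highest mean in an interneuron class: 63.05 ± 6.23 CPM in SST-like cells (lowest, median and highest 55.3, 62.1 and 71.4 CPM, n = 6). PVALB-like (49.5 ± 16.2 CPM), glutamatergic-like (49.5 ± 30.2 CPM, n = 5) and microglia-like cells (49.1 ± 53.5 CPM, n = 4) stood close together below, and NGFC-like cells had 35.2 ± 8.72 CPM (n = 6). Every NGFC-like library, at 28.1 to 51.99 CPM, lay under the lowest SST-like library. Astrocyte-like cells averaged 12.1 CPM, oligodendrocyte precursor-like cells 3.41 and oligodendrocyte-like cells 0.856, which was below every SST-like and NGFC-like library. The highest astrocyte-like library (24.9 CPM) overlapped the lowest PVALB-like one (20.4 CPM), and 1 glutamatergic-like library, with 13 cells, read 0.

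In single cells the share with a UMI moved with depth. At full depth Camk2b was seen in 52.03% of SST-like, 53.2% of PVALB-like and 36.3% of NGFC-like WT cells, and Camk2a in 56.6% of glutamatergic-like ones. The median depths were 6247 UMIs in SST-like, 6817 in PVALB-like, 3431 in NGFC-like, 1032 in glutamatergic-like and 3487 in oligodendrocyte-like cells. Thinning to 1000 UMIs left out the cells that had fewer, which were 437 of the 903 glutamatergic-like, 321 SST-like, 20 PVALB-like, 150 NGFC-like and 652 oligodendrocyte-like cells. In the thinned cells, Camk2b was seen in 12.8% of SST-like, 12.04% of PVALB-like and 10.4% of NGFC-like cells, and Camk2a in 8.53%, 9.22% and 13.4%. The 466 glutamatergic-like cells left showed Camk2a in 39.7% and Camk4 in 28.3%. Oligodendrocyte-like cells, where free RNA could contribute, showed Camk2b in 0.209%, Camk2a in 0.190% and Camkk1 in 0.0761% of cells. Even Camkk1, the lowest member, was above its oligodendrocyte-like value, at 1.55% of SST-like, 2.01% of PVALB-like and 1.85% of NGFC-like cells.

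Which kinases separate the interneuron classes was asked within the WT libraries, where each class of a library comes from the same cell suspension. To pass, a gene needed a natural-log difference of at least 0.1 (0.144 on the log2 scale) with an adjusted p below 0.01 in an edgeR quasi-likelihood test over 11834 genes with library as a block. By this test NGFC-like cells differed from SST-like cells in both branches of the pathway: they held more Camk2d and Camkk2 and less Camk1d and Camk4. Of these calls, only that of Camk1d held whichever single library was left out. Between PVALB-like and SST-like cells no member passed.

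Between NGFC-like and SST-like cells, 2 members were higher and 2 lower, where 16.6% of all genes passed, 8% as higher and 8.64% as lower in NGFC-like cells. Camk2d was higher in 6 of 6 libraries (log2 difference 0.99, SE 0.23, adjusted p = 0.00170). Camkk2 was likewise higher in 6 of 6 (log2 difference 0.71, SE 0.18, adjusted p = 0.00380). Lower in NGFC-like cells were Camk1d, in 6 of 6 libraries (log2 difference -0.83, SE 0.17, adjusted p = 3.9e-04), and Camk4, also in 6 of 6 (log2 difference -0.86, SE 0.23, adjusted p = 0.00595). Camk2a, at a log2 difference of 0.58, was higher in 5 of 6 libraries and did not pass (adjusted p = 0.0204). The log2 differences of Camk2b, Camk2g and Camkk1 were -0.04, -0.24 and -0.08. The median over the 8 members was -0.06, beside 0.01 over all genes. Camk1d kept its call when any 1 library was left out. The call of Camk2d was lost without WT cortex 3 (adjusted p = 0.0119), and that of Camkk2 without WT cortex 3 (0.0368) or WT hippocampus 3 (0.0144). The call of Camk4 was lost without WT cortex 2 (0.0413) or any of the WT hippocampus libraries (0.0145, 0.0245 and 0.0194 without replicates 1, 2 and 3), and also with cells marked as doublets left out (0.0148). Without both shallow WT libraries, a choice made after the data were seen, the log2 differences were 0.9999 for Camk2d (adjusted p = 0.0188), 0.80 for Camkk2 (0.0194), -0.88 for Camk1d (0.00615) and -0.49 for Camk4 (0.163), so that only the first 3 kept a difference of similar size. With no library block, none of the 4 passed (adjusted p from 0.0212 for Camk1d to 0.168 for Camkk2), and DESeq2 called Camk2d, Camk1d and Camk4 but not Camkk2 (0.0116). Over all alternatives tried, adjusted p ran from 1.4e-09 to 0.0429 for Camk2d, 2.3e-04 to 0.168 for Camkk2, 2.9e-06 to 0.0212 for Camk1d and 3.9e-06 to 0.163 for Camk4.

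Between PVALB-like and SST-like cells 0 members passed, where 13% of genes did (6.53% higher, 6.45% lower). At an unadjusted edgeR p under 0.05 there was 1 member, and DESeq2 called 0. That member was Camk4, lower in PVALB-like cells in 6 of 6 libraries (log2 difference -0.61, SE 0.21, adjusted p = 0.0371). Camk2d and Camkk2 were higher in PVALB-like cells in 6 of 6 libraries each, at log2 differences of 0.24 and 0.35 that did not pass. The lowest value of the others was -0.30 (Camk1d), and the 8 had a median of 0.06, beside -0.01 over all genes. The number of genes that passed fell from 1536 to 926 without WT cortex 2 and to 867 without WT cortex 3.

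NGFC-like cells against PVALB-like cells also gave 0 members, beside 15.3% of genes (7.47% higher, 7.82% lower), with 4 members at an unadjusted edgeR p under 0.05 and 0 by DESeq2. Camk2d was higher in NGFC-like cells in 6 of 6 libraries (log2 difference 0.75, SE 0.25, adjusted p = 0.0255), and Camk1d lower in 5 of 6 (log2 difference -0.53, SE 0.19, adjusted p = 0.0375). Neither passed. The log2 differences of Camk2a and Camk2g were 0.45 and -0.35, and the median of the members was -0.0014, beside 0.02 over all genes. Without WT cortex 3 the number of genes that passed moved from 1810 to 1123.

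Against SST-like cells, glutamatergic-like cells held 5 members at a higher level and 0 at a lower one, where 22.1% of genes passed (10.5% higher, 11.6% lower). The largest differences were those of Camk4 (log2 difference 2.85, SE 0.21, adjusted p = 5.8e-12) and Camk2a (2.55, SE 0.19, adjusted p = 1.2e-11). Camkk2 (1.97, adjusted p = 2.3e-09) and Camk2b (1.35, adjusted p = 7.4e-07) came next, and these 4 were higher in 5 of 5 libraries. Camkk1 passed with a difference of 0.93 (adjusted p = 0.00349), higher in 4 of 5 libraries. Its call was lost without WT cortex 2 (adjusted p = 0.0413), without WT hippocampus 3 (0.0559), without both shallow libraries (0.0607) and with the stricter cell filter (0.0219). Its adjusted p over all alternatives ran from 0.00113 to 0.0607. Camk2d, Camk2g and Camk1d did not pass, at 0.35, 0.14 and -0.08. The median of the 8 members was 1.14, beside -0.04 over all genes. Without WT cortex 2, which supplied 637 of the 903 WT glutamatergic-like cells, 1655 genes passed in place of 2613.

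Oligodendrocyte-like cells held all 8 members at a lower level than SST-like cells, where 74.4% of genes passed, 36.4% as higher and 38.0% as lower. The log2 differences ran from -5.74 (Camk1d, 18 UMIs in 25116540) and -5.26 (Camk2b) to -3.43 (Camk2g), -3.08 (Camkk2) and -2.64 (Camk2d), each lower in 6 of 6 libraries. The median of the members was -4.71. The median over all genes was -0.02 with the TMM scaling used here, 0.15 with DESeq2 and -0.59 with library-size scaling, and the share of called genes that were higher was 48.9%, 54.5% and 29.9%. All 8 members were lower under each of the 3 scalings by more than those shifts.

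Within the SST-like class, Camk2a spread more widely over the clusters than over the 3 interneuron classes. With both regions pooled, the Chodl-marked SST-like cluster (247 WT cells) had 13.8 CPM of Camk2a and the Th-marked cluster 31.1. The clusters led by Cbln4, Crh and Myh8 had 79.6, 77.8 and 104. The shallow SST-like cluster (median 1420.5 UMIs a cell) read 138. In WT cortex the Chodl-marked cluster was the lowest of these 6 for Camk2a (11.9 CPM), Camk2b (73.4), Camk2g (60.5) and Camkk2 (33.5). In WT hippocampus it had only 21 cells. There it read 57.5 CPM of Camk2a from 7 UMIs, above the Th-marked (21.3) and Crh-led (52.8) clusters. The Th-marked cluster was the lowest for Camk4 in both regions (30.9 and 16 CPM). For Camk2d the order differed between regions: the Crh-led cluster read 126 CPM in WT cortex and 91.5 in WT hippocampus, and the Th-marked one 90.9 and 125. These values pool WT cells over libraries and have no spread over them.

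The PVALB-like clusters differed in Camk2g, Camk2d and Camk4. The largest (1355 WT cells, led by Cartpt and Tac1) had 154 CPM of Camk2g, 89.7 of Camk2d and 34.3 of Camk4. The cluster led by Kcng4 and Pthlh (221 WT cells) had 60.2 CPM of Camk2g, 154 of Camk2d and 18.4 of Camk4. The smallest, led by Crabp1 and Kit, held 196 CPM of Camk4 and 332 of Camk2a in its 36 WT cortex cells, the highest values of any interneuron cluster in WT cortex. In NGFC-like cells of WT hippocampus the deep cluster read 82.5 CPM of Camk2a and 129 of Camk2d, and the shallow one 198 and 107. The shallow cluster had 550 of its 601 cells from WT hippocampus.

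Likeness of pattern was measured as Pearson's r of log2(CPM + 1) over the 33 clusters with at least 50 WT cells, among 9633 genes with a mean of at least 10 CPM. These clusters share libraries and fall into neurons and glia, so r also carries that split and is given as a description. The genes most like Camk2a were Cpne6 (r = 0.96), Cntnap5a (r = 0.95) and Camkv (r = 0.94), and those most like Camk2b were Scn2a1 (r = 0.98), Dlgap3 (r = 0.98) and Chgb (r = 0.98). Camk2d lay nearest to Ap1b1 (r = 0.92), Atxn1 (r = 0.91) and Snx10 (r = 0.90), and Camk2g to Dclk1 (r = 0.93), 6030419C18Rik (r = 0.93) and Lysmd2 (r = 0.93). Among the nearest were, for Camk4, Ica1l (r = 0.91) and Add2 (r = 0.91), for Camk1d Tbc1d9 (r = 0.94), Lppr4 (r = 0.93) and Rab11fip5 (r = 0.92) and for Camkk2 Rusc1 (r = 0.91) and Arhgap26 (r = 0.91). Camkk1 was under the level minimum. Among the members themselves, Camk2a and Camk2b were the most alike (r = 0.93), followed by Camk2d and Camk1d (0.90), and Camk2d and Camk4 the least (0.63).

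Around the kinases, 40 genes of the pathway were read in the same tests: other CaM kinases, inhibitors, calmodulin and its buffers, phosphatases, CREB-side targets and synaptic partners. The endogenous CaMKII inhibitor Camk2n1 differed between all 3 interneuron classes, with 643 ± 215 CPM in SST-like, 317 ± 60.6 CPM in PVALB-like and 88.1 ± 45.1 CPM in NGFC-like WT cells (n = 6 each) and 1438 ± 860.5 CPM in glutamatergic-like cells (n = 5). It was lower in PVALB-like (log2 difference -0.997, adjusted p = 7.1e-04) and in NGFC-like cells (-2.86, adjusted p = 1.1e-10) than in SST-like cells, lower in NGFC-like than in PVALB-like cells (-1.86, adjusted p = 6.5e-07), and higher in glutamatergic-like than in SST-like cells (0.998, adjusted p = 8.0e-04). The inhibitor Camk2n2 was lower than in SST-like cells in NGFC-like (-0.55, adjusted p = 0.00603) and glutamatergic-like cells (-1.04, adjusted p = 2.3e-05), and its difference in PVALB-like cells (-0.31) did not pass. Of the calmodulin genes, Calm2 averaged 2982, 2791 and 2997 CPM in SST-like, PVALB-like and NGFC-like cells, and neither Calm2 nor Calm3 passed in the comparisons among these classes. In glutamatergic-like cells Calm2 stood at 6319 CPM and was higher than in SST-like cells (log2 difference 0.95, adjusted p = 1.0e-05), and Calm3 (-0.11) did not pass.

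Counted over the list, 4 pathway genes were higher and 7 lower in PVALB-like than in SST-like cells (list median -0.11, beside -0.01 over all genes, of which 6.53% were higher and 6.45% lower). The largest of these differences were Pcp4, a small calmodulin-binding protein (-3.75), Grin2a, an NMDA receptor subunit (-1.29), Nrgn, or neurogranin, which holds calmodulin at low calcium (1.27), and Lrrc7 (-1.17). NGFC-like cells had 3 higher and 7 lower than SST-like cells (median -0.02, beside 0.01, with 8% and 8.64% of all genes), among them Pcp4 (-5.55), Camk1g, a further CaMKI gene (-3.82), Camk2n1 and Actn2. Actn2, which encodes an actinin that binds CaMKII, had 1 UMI in all WT NGFC-like cells, so only a bound holds, of at least 9.02-fold below PVALB-like cells. Against PVALB-like cells the NGFC-like class had 3 higher and 6 lower (median 0.01, beside 0.02, with 7.47% and 7.82%), among them Grin2a (3.29), Camk1g (-2.75), Camk2n1 (-1.86) and Actn2. Glutamatergic-like cells had 15 higher and 5 lower than SST-like cells (median 0.31, beside -0.04, with 10.5% and 11.6%), among them Nrgn (6.77), Pcp4l1 (-2.30) and Pcp4 (1.75). Oligodendrocyte-like cells had 5 higher and 32 lower (median -2.42, beside -0.02, with 36.4% and 38.0%, and the same median with Actn2 at its bound), among them Gria1 (-6.41), Grin2b (-6.18) and Gap43 (-6.14). Actn2 had 0 UMIs there and was at least 35.8-fold lower, against a floor of 3 counts over the group.

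The effect of losing Grin1 on these kinases was read in SST-like and PVALB-like cells of both regions and in NGFC-like cells of hippocampus, since null cortex 1 had too few NGFC-like cells (5) for a sum. Grin1 itself was low in every null library. In SST-like cells it read 152, 254 and 232 CPM in the WT cortex libraries and 36.7 and 27.8 in the null ones, and 121, 174 and 157 against 21.4 and 21.9 in hippocampus. PVALB-like cells gave 115, 214 and 179.9 against 43.1 and 23.6 CPM in cortex and 102, 171 and 128 against 21.7 and 17.02 in hippocampus. In NGFC-like cells of hippocampus the values were 115, 111 and 134 against 29.7 and 15.5 CPM. WT and null libraries did not overlap in any of these classes. The log2 differences were -2.74 and -2.78 in SST-like, -2.52 and -2.89 in PVALB-like (cortex, then hippocampus) and -2.47 in NGFC-like cells, with edgeR adjusted p = 0.0298, 0.0269, 0.0359, 0.0589 and 0.504, so that even Grin1 did not pass the threshold of 0.01. The deleted exons are not named in the sources used here, so whether the remaining 3′ tags come from the deleted allele cannot be told.

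None of the 8 kinases passed in any class or region. The count was 0 in SST-like cortex (0% of 12857 genes called), SST-like hippocampus (0%), PVALB-like cortex (0% of 9714), PVALB-like hippocampus (0%) and NGFC-like hippocampus (0% of 9742) by edgeR. At an unadjusted p under 0.05 there were 275, 480, 350, 326 and 319 genes in that order, with 1 member among them, Camk4 in PVALB-like cortex. DESeq2 called 2, 2, 12, 1 and 1 genes, 0 of them members. With the replicate number as a block, 4 genes passed in PVALB-like cortex in place of 0, none of them a member. Its count was also 3 without either null hippocampus library, 1 without WT cortex 1, WT hippocampus 1 or WT hippocampus 3, and 5 without WT hippocampus 2. Of the pathway list, 0 of the 40, 40, 37, 37 and 36 genes tested passed. Median log2 differences of the members were -0.11, -0.10, 0.15, 0.19 and -0.04, beside -0.02, -0.04, -0.0037, -0.01 and -0.04 over all genes.

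In SST-like cells Camk2b and Camk2g overlapped between genotypes in both regions, although within replicates 1 and 2 the null Camk2b was higher in cortex by 0.65 and 0.43, and in hippocampus differed by -0.0020 and 0.48. Camk2a and Camk2d tended to lower values in the null libraries without passing. Camk2a read 42.2 and 45.98 CPM in the null cortex libraries, against 51.8, 94.8 and 75.6 in WT, and 44.4 and 59.6 against 62.2, 126 and 53.98 in hippocampus. Both null cortex libraries lay under all 3 WT ones, whereas the ranges overlapped in hippocampus. Within replicates 1 and 2 the null Camk2a differed by -0.29 and -1.03 in cortex and by -0.48 and -1.07 in hippocampus. The fitted log2 differences were -0.73 (SE 0.39, 95% interval -1.57 to 0.11) in cortex and -0.60 (SE 0.38) in hippocampus, neither of which passed. The shallow WT replicate 2 libraries hold the highest Camk2a values, and without both of them the differences were -0.53 and -0.10. Camk2d read 36.7 and 80.2 CPM in the null cortex libraries and 82.3, 92.5 and 92.5 in the WT ones, and 46.9 and 63.7 against 84.4, 67.5 and 69.5 in hippocampus, with no overlap in either region. Its log2 differences of -0.56 in cortex and -0.38 in hippocampus did not pass. With each library left out in turn they ran from -1.25 to -0.15 in cortex and from -0.57 to -0.22 in hippocampus. Camkk2 read 31.2 and 33.6 CPM in the null hippocampus libraries, below the WT 63.3, 41.9 and 47.4, at a log2 difference of -0.62 (SE 0.31) that did not pass either. The remaining members ranged from -0.38 (Camkk2) to 0.57 (Camk2b) in cortex and from -0.21 (Camk4) to 0.25 (Camk2g) in hippocampus. Leaving out each library in turn gave -0.81 to 0.050 (Camkk2) and -0.071 to 1.03 (Camk2b) in cortex. In hippocampus it gave -0.32 to 0.030 (Camk4) and 0.013 to 0.48 (Camk2g). In these SST-like sums astrocyte markers were higher in the null libraries, at 103 and 100.3 CPM against 56.2, 51.3 and 52.3 in cortex and 168 and 136 against 74.9, 129.6 and 106 in hippocampus, and what RNA of other cells adds to the genotype values was not tested. For the difference between the regions the interaction was fitted, and 0 members and 0% of 12857 genes passed (65 genes and 0 members at an unadjusted edgeR p under 0.05, DESeq2 0).

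Clusters made up the SST-like class unequally in the 4 groups. The shallow cluster supplied 42.5% of the WT hippocampus cells and 7.93% of the null ones. The Chodl-marked cluster, where cortical Camk2a is low, supplied 6.59% of the WT cortex cells and 17.7% of the null ones. In cortex the Th-marked cluster made up 12.2% and 21.97%. Within clusters, Camk2a read 11.9 (WT) and 7.16 CPM (null) in the Chodl-marked cluster of cortex, 34.2 and 23.6 in the Th-marked one and 83.2 and 71.2 in the Crh-led one. The Cbln4-led cluster read 82.4 and 72.4, the Myh8-led one 106 and 105 and the shallow one 121 and 75.9, the last null value from 11 UMIs. What the mix of clusters contributes to the class values was not tested.

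In PVALB-like cells the member that stood out was Camk4 in cortex. It read 53.9 and 102 CPM in the 2 null cortex libraries and 20.5, 32.2 and 41.2 in the 3 WT ones, with no overlap. The log2 difference was 1.37 (SE 0.35, 95% interval 0.62 to 2.12), which did not pass over all genes (edgeR adjusted p = 0.293). With the replicate number as a block it was 1.504 (adjusted p = 0.0632). Adjusted p over all alternatives ran from 0.0350 to 1, and the difference from 0.77 to 1.64. Within replicate 1 the null library was higher by 1.35 and within replicate 2 by 1.64. In hippocampus the libraries read 32.5 and 48.1 CPM (null) and 23.3, 44.95 and 36.99 (WT), a log2 difference of 0.20. The interaction between regions was -1.17 (edgeR adjusted p = 1, and -1.45 to -0.56 with each library left out in turn). For it 0 members and 0% of 9714 genes passed, 106 genes had an unadjusted p under 0.05, Camk4 the 1 member among them, and DESeq2 called 0.

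The Camk4 values moved with the clusters that make up the class. The cluster led by Crabp1 and Kit, in which Camk4 is high, held 2.75% of the PVALB-like cells of WT cortex and 22.7% of those of null cortex, and in hippocampus 0.974% and 3.21%. The cluster led by Cartpt and Tac1 held 88.4% and 49.5% in cortex, and the one led by Kcng4 and Pthlh 8.80% and 27.8%. Inside these clusters of cortex, with the cells of all libraries pooled, Camk4 was at 196 (WT) and 282 CPM (null) in the Crabp1 cluster, 33.7 and 47.3 in the Cartpt cluster and 13.7 and 23.1 in the Kcng4 cluster. The null value was the higher one in each, by less than between the whole classes, and the Kcng4 values rest on 12 and 21 UMIs. The part that the mix of clusters has in the class difference was not tested.

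In PVALB-like cells no CaMKII gene passed by genotype. Camk2a read 101 and 108 CPM in the null cortex libraries, within the WT range of 42.96, 125 and 71.03, and 62.8 and 109.7 in the null hippocampus libraries, within 78.8, 167 and 55.5. Camk2b differed by 0.503 (log2) in cortex (0.01 to 0.93 with each library left out in turn) and 0.34 in hippocampus (0.08 to 0.62). Within replicates 1 and 2 its null library was higher by 0.65 and 0.34 in cortex and by 0.30 and 0.54 in hippocampus, although the libraries of the genotypes overlapped in both regions. Camk2g differed by 0.18 in cortex (-0.30 to 0.61 with each library left out in turn) and 0.37 in hippocampus (0.25 to 0.53). In hippocampus both null libraries lay above all 3 WT ones for Camk2g (158 and 139 against 102, 111 and 125 CPM), a difference that did not pass. The other differences ran from -0.25 (Camkk1) to 0.12 (Camk1d) in cortex and from -0.44 (Camkk2) to 0.39 (Camk1d) in hippocampus. Single libraries moved these values when left out in turn. Hippocampal Camkk2 ran from -0.62 to -0.05 and Camk1d from 0.13 to 0.73, and cortical Camkk1 from -0.50 to -0.07.

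In NGFC-like cells of hippocampus, Camk2a gave the largest value of the 8. It read 43.9 and 80.5 CPM in the null libraries and 90.6, 207 and 81.2 in the WT ones. Both null libraries lay under all 3 WT libraries, null replicate 2 only just under WT replicate 3. Within replicates 1 and 2 the null log2 differences were -1.03 and -1.35. The fitted log2 difference was -0.99 (SE 0.58, 95% interval -2.24 to 0.26) and did not pass (edgeR adjusted p = 0.962). Without the shallow WT libraries it was -0.40. The shallow NGFC-like cluster held 52.7% of the WT hippocampus cells and 4.35% of the null ones. In the deep cluster alone, with libraries pooled, Camk2a was at 82.5 CPM in WT and 78 in null hippocampus. The other 7 members ranged from -0.26 (Camk2d) to 0.42 (Camk2g). With each library left out in turn, these 2 ran from -0.39 to -0.19 and from 0.12 to 0.65. In NGFC-like cells of cortex the single null sum, from replicate 2, read 68.98 CPM of Camk2a and 182 of Camk2d, and it was not tested.

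**Figure D3:**
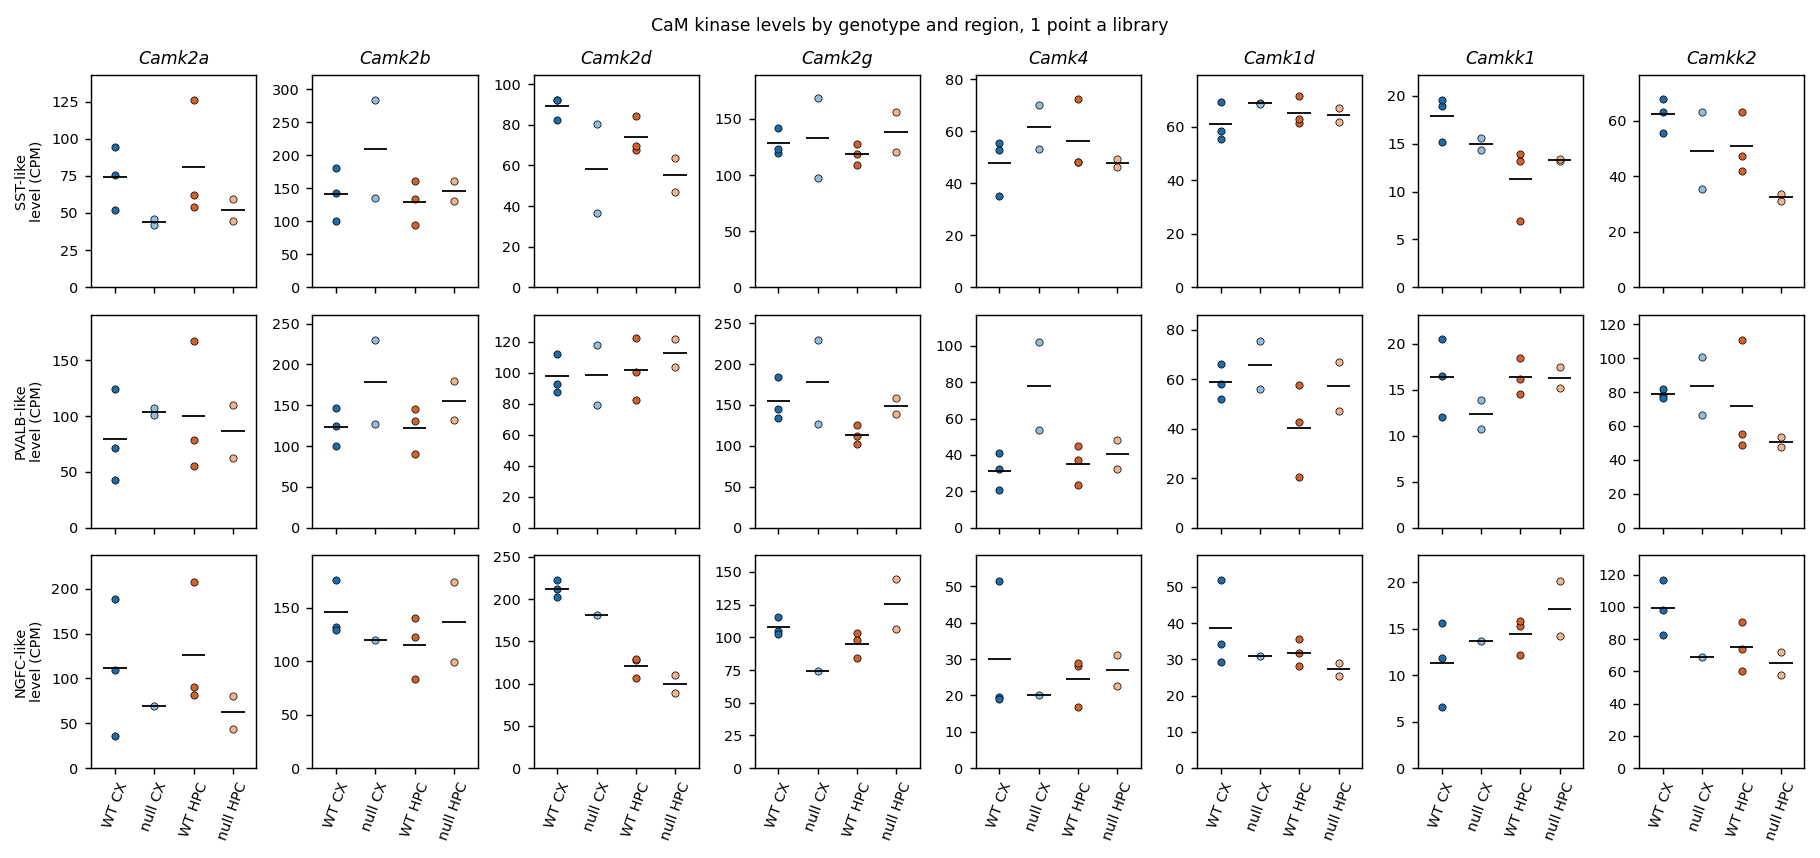
Level of each CaM kinase gene (CPM) in SST-like, PVALB-like and NGFC-like cells by genotype and region (CX, frontal cortex; HPC, hippocampus), with 1 point for each library and the group mean as a bar. In PVALB-like cortex the null Camk4 points (53.9 and 102 CPM) lie above the WT points (20.5, 32.2 and 41.2 CPM), a difference that did not pass over all genes.

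Hippocampus and cortex were compared in the WT libraries of each interneuron class, and no kinase passed. By edgeR 0 members passed in SST-like cells (0.0418% of 11970 genes did), in PVALB-like cells (0.0114% of 8789) and in NGFC-like cells (0% of 7864). At an unadjusted p under 0.05 there were 905, 366 and 203 genes, with 1, 0 and 1 members, and DESeq2 called 138, 25 and 4 genes, 0 of them members. With the replicate number as a block the counts were 354, 57 and 4 in place of 5, 1 and 0, again with 0 members. The 5 genes of the SST-like class became 3 without WT hippocampus 1 and 0 without any of WT cortex 1, 2 and 3 or WT hippocampus 3, and the 1 gene of the PVALB-like class was lost without any of the 6 libraries. Member medians were -0.18, 0.01 and -0.27, beside 0.02, 0.02 and 0.02 over all genes, and 0 of the 40, 36 and 33 pathway genes tested passed.

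Camk2d in NGFC-like cells was the member with the widest gap between regions. It read 212, 222 and 203 CPM in the 3 cortex libraries and 128, 107 and 129 in the 3 hippocampus ones, with no overlap. Within replicates 1, 2 and 3 hippocampus was lower, at log2 differences of -0.73, -1.05 and -0.64. The fitted difference was -0.78 (SE 0.27, 95% interval -1.38 to -0.17), and it did not pass over all genes (adjusted p = 1, and 0.263 to 1 over the alternatives, lowest with the replicate block). The shallow cluster held 52.7% of the hippocampal and 5.05% of the cortical NGFC-like cells. In the deep cluster alone, with libraries pooled, Camk2d was at 215 CPM in cortex and 129 in hippocampus. In the null libraries the 1 cortex sum had 182 CPM and the hippocampus sums 89.2 and 109.8.

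In SST-like cells Camkk1 had the smallest p of the members: 15.1, 18.9 and 19.6 CPM in cortex and 13.2, 6.90 and 13.9 in hippocampus, again with no overlap. Its log2 difference of -0.71 (SE 0.30) did not pass (adjusted p = 0.631). Marker RNA of other cells also moved with region in these sums, the astrocyte markers given above among it, and what such RNA adds to the regional values was not tested. The regional value of Camk2a depended on single libraries. It was 0.08, 0.35 and 0.23 in SST-like, PVALB-like and NGFC-like cells with all libraries, and -0.44, -0.31 and -0.39 without WT hippocampus 2. Without WT cortex 1 it was -0.11 in SST-like and -0.16 in NGFC-like cells, and with clusters at resolution 0.6 it was -0.06 in SST-like cells.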

How the data were processed

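Single-cell RNA was measured in TdTomato-sorted cells as droplet 3′-end libraries. The authors made the deposited UMI counts with Cell Ranger on mm10 with extended gene ends, version 2.1.1 per the labels and 3.0.2 per the matrix headers. The 4 matrices hold 10 libraries, told apart by barcode suffix. Replicate numbers, and with them the chemistry (v2 for replicate 1, v3 for 2 and 3), were inferred by matching barcode counts to the cell estimates of the methods. The files do not state them. The members and the pathway list were chosen with earlier results of these data known. By the rule for named genes, the text names all members and, of the pathway list, the inhibitors, calmodulin genes and at most 4 of the largest differences that passed in each comparison. Results for some genes under this rule are not reported here.

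Of 26987 cells, 26201 had 200 to 6000 genes and less than 30% mitochondrial UMIs. Seurat 5.3.0 (R 4.3.3) integrated the 4 matrices, each of them a group of region and genotype. It used 2000 variable features (1985 after members and pathway genes were taken out) and 25 dimensions, and gave 34 clusters at resolution 1.0. Libraries within a matrix, which differ in chemistry and depth, were not integrated with each other. A cluster was named by at least 3 markers of a class at 20 CPM or more, unless it had low UMIs and no marker of that class among its top genes, or its top genes held more markers of another class. This left 4 clusters with 1122 cells unnamed. Scrublet at a rate of 0.06 marked 249 kept cells, which stayed in. UMIs were summed per library and class where at least 10 cells were present, and edgeR 4.0.16 (TMM scaling, filterByExpr, two-sided quasi-likelihood F test) tested all genes, with Benjamini-Hochberg adjustment over all genes tested. A gene passed below an adjusted p of 0.01 with a natural-log difference of 0.1 or more. Class tests had the library as a block. The tests were tested on simulated data.

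Alternatives were DESeq2 1.42.0, library-size scaling, no filter on low counts, an adjusted p under 0.05, no mitochondrial genes, resolutions 0.6 and 1.4, at least 1000 genes with at most 10% mitochondrial UMIs, marked doublets left out, each library left out, the replicate number as a block, no library block, and SST-like cells without the Th-marked cluster. Leaving out the WT library of each region with the lowest median UMIs was chosen after seeing the data. As a check on pairing, the deviations of a cortex and a hippocampus library that share a replicate number correlated at r = 0.77, 0.70 and 0.43 in SST-like, 0.56, 0.58 and 0.36 in PVALB-like and 0.53, 0.43 and 0.18 in NGFC-like cells (replicates 1, 2 and 3). Pairs of unlike replicate numbers gave -0.69 to 0.22, -0.53 to 0.09 and -0.49 to 0.18, so replicate 3 of NGFC-like cells did not stand above them. Deviations were taken from the mean of the 3 libraries of a region, which by itself pushes unlike pairs down when like pairs are positive. Chemistry, session and depth can also go with the replicate number, so shared mice cannot be told apart from them by this check.

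The p-values measure the spread between libraries of pooled mice, so single animals cannot be told apart, nor can the sexes. Since both regions came from the same brains, the libraries of a genotype and replicate share mice, and the 6 WT libraries rest on 3 pools, which the class tests count as 6. Genotype groups have 2 or 3 libraries. Depth, chemistry and cluster mix differ between the groups. Session, chemistry and replicate number go together. Class names rest on markers, and RNA from other cells was not removed. The values are transcript levels, which say nothing of kinase activity or protein. The ribosome-tag and in situ data of the study were not analysed here.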

Additional observations from a re-analysis of the deposited data

Results flagged for a closer look

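In 3 of 56 groups of 5 or 6 WT libraries, 1 library lay far from the others of its class, which is the number that chance gives (about 1 in 20 groups). Null libraries were not screened in this way. Camk2d in oligodendrocyte precursor-like cells read 44.4 CPM in WT cortex 1 and 19.5 to 25.2 CPM in the other 5 WT libraries. Camk4 in NGFC-like cells read 51.4 CPM in WT cortex 3 and 16.9 to 28.8 CPM in the others. Camk1d in NGFC-like cells read 52 CPM in WT cortex 2 and 28.1 to 35.6 CPM in the others. Without WT cortex 2 the lower Camk1d of NGFC-like against SST-like cells still passed. What set these 3 libraries apart was not tested.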

How the results depend on the processing

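For the 8 members, 15 comparisons gave 120 results, and the alternatives gave 2311 further values. Of these 2187 kept both the direction and the side of the threshold, 20 lost a call, 8 gained 1 and 96 changed sign. None of the values that changed sign had passed. The sign changes were 40 of 848 among genotype values, 23 of 407 for region, 17 of 344 for interactions and 16 of 712 between classes. No member passed in a genotype, interaction or region comparison under any alternative. These are 80 of the 120 results, and since Grin1 did not pass by genotype either, staying under the threshold there is no sign of stability. Pooling the UMIs of libraries in place of averaging moved none of 24 interneuron levels by more than 1 SD. Below, counts are genes that passed and other values are log2 differences, and the cause of a change was not tested.

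At an adjusted p under 0.05 the counts of genes were 1 (SST cortex by genotype), 1 (SST hippocampus by genotype), 8 (PVALB cortex by genotype), 36 (SST by region), 8 (PVALB by region), 2437 (PVALB against SST) and 2847 (NGFC against PVALB). The call was gained for Camk4 in PVALB against SST (-0.61), Camk2a in NGFC against SST (0.58), Camk2d in NGFC against PVALB (0.75) and Camk1d in NGFC against PVALB (-0.53).

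With DESeq2 the counts of genes were 2 (SST cortex by genotype), 2 (SST hippocampus by genotype), 12 (PVALB cortex by genotype), 1 (PVALB hippocampus by genotype), 1 (NGFC hippocampus by genotype), 138 (SST by region), 25 (PVALB by region) and 4 (NGFC by region). A value changed sign to -0.016 (Camk1d, SST hippocampus by genotype). The call was lost for Camkk2 in NGFC against SST (0.65).

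With library-size scaling the count was 3 (PVALB by region). A value changed sign to -0.016 (Camk1d, SST hippocampus by genotype).

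With no filter on low counts the counts of genes were 20 (SST cortex by genotype), 19 (SST hippocampus by genotype), 1 (SST interaction), 59 (PVALB cortex by genotype), 17 (PVALB hippocampus by genotype), 3 (PVALB interaction), 21 (NGFC hippocampus by genotype), 149 (SST by region), 85 (PVALB by region) and 36 (NGFC by region). These values changed sign to -0.019 (Camk2g, SST cortex by genotype), -0.0017 (Camkk2, PVALB cortex by genotype), 0.013 (Camkk1, PVALB hippocampus by genotype), -0.023 (Camk1d, SST by region), -0.020 (Camk2d, PVALB by region) and -0.026 (Camkk1, PVALB against SST). The call was gained for Camk4 in PVALB against SST (-0.65), Camk2a in NGFC against SST (0.51) and Camk2d in NGFC against PVALB (0.73).

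With clusters at resolution 0.6 the counts of genes were 2 (SST by region) and 3 (PVALB by region). These values changed sign to -0.053 (Camk1d, SST hippocampus by genotype), -0.064 (Camk2a, SST by region) and -0.051 (Camkk1, PVALB against SST). The call was gained for Camk2a in NGFC against SST (0.63).

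With clusters at resolution 1.4 a value changed sign to -0.019 (Camk1d, SST hippocampus by genotype).

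With the stricter cell filter the count was 0 (PVALB by region). These values changed sign to 0.011 (Camkk1, PVALB hippocampus by genotype) and 0.060 (Camk1d, glutamatergic against SST). The call was lost for Camkk1 in glutamatergic against SST (0.75).

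With cells marked as doublets left out the count was 3 (SST by region). A value changed sign to 2.4e-05 (Camkk1, PVALB hippocampus by genotype). The call was lost for Camk4 in NGFC against SST (-0.83).

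With mitochondrial genes left out the count was 3 (PVALB by region).

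With the replicate number as a block the counts of genes were 4 (PVALB cortex by genotype), 354 (SST by region), 57 (PVALB by region) and 4 (NGFC by region). These values changed sign to -0.027 (Camk1d, SST hippocampus by genotype), -0.023 (Camk2d, PVALB cortex by genotype) and -0.054 (Camkk2, PVALB cortex by genotype).

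With no library block the counts of genes were 530 (PVALB against SST), 990 (NGFC against SST), 750 (NGFC against PVALB) and 1258 (glutamatergic against SST). The call was lost for Camk2d in NGFC against SST (1.02), Camk4 in NGFC against SST (-0.89), Camk1d in NGFC against SST (-0.84) and Camkk2 in NGFC against SST (0.62).

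Without the Th-marked cluster a value changed sign to -0.064 (Camk1d, SST hippocampus by genotype).

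Without the shallow WT libraries, chosen after seeing the data, the counts of genes were 2 (SST cortex by genotype), 1 (PVALB cortex by genotype), 0 (SST by region), 0 (PVALB by region), 791 (PVALB against SST), 1260 (NGFC against SST), 1034 (NGFC against PVALB) and 1611 (glutamatergic against SST). These values changed sign to -0.016 (Camk2g, SST cortex by genotype), 0.028 (Camk4, SST hippocampus by genotype), -0.0023 (Camkk1, SST hippocampus by genotype), 0.47 (Camk2a, PVALB hippocampus by genotype), -0.11 (Camk4, NGFC hippocampus by genotype), -0.24 (Camk2a, SST by region), -0.078 (Camk4, PVALB by region), -0.013 (Camk2a, PVALB against SST), -0.036 (Camkk1, PVALB against SST), 0.0041 (Camk4, NGFC against PVALB) and -0.082 (Camk2d, glutamatergic against SST). The call was lost for Camk2d in NGFC against SST (0.9999), Camk4 in NGFC against SST (-0.49), Camkk2 in NGFC against SST (0.80) and Camkk1 in glutamatergic against SST (0.83).

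With each library left out in turn, the counts of genes ran from 0 to 5 (PVALB cortex by genotype), 0 to 5 (SST by region), 867 to 1482 (PVALB against SST), 1123 to 1587 (NGFC against PVALB) and 1655 to 2600 (glutamatergic against SST), and were 0 throughout (PVALB by region). For SST cortex by genotype the ranges were -0.071 to 1.03 (Camk2b), -0.39 to 0.42 (Camk2g) and -0.81 to 0.050 (Camkk2). For SST hippocampus by genotype the ranges were -0.32 to 0.030 (Camk4) and -0.049 to 0.094 (Camk1d). For SST interaction the ranges were -0.097 to 0.62 (Camk2a), -0.83 to 0.27 (Camk2b), -0.23 to 0.87 (Camk2d), -0.18 to 0.64 (Camk2g) and -0.67 to 0.20 (Camkk2). For PVALB cortex by genotype the ranges were -0.27 to 0.25 (Camk2d), -0.30 to 0.61 (Camk2g), -0.085 to 0.41 (Camk1d) and -0.27 to 0.39 (Camkk2). For PVALB hippocampus by genotype the ranges were -0.63 to 0.47 (Camk2a), -0.10 to 0.42 (Camk4) and -0.092 to 0.077 (Camkk1). For PVALB interaction the ranges were -1.04 to 0.070 (Camk2a), -0.58 to 0.34 (Camk2b), -0.069 to 0.44 (Camk2d), -0.23 to 0.68 (Camk2g) and -0.0088 to 0.63 (Camk1d). For NGFC hippocampus by genotype the ranges were -0.26 to 0.65 (Camk2b) and -0.16 to 0.39 (Camk4). For SST by region the ranges were -0.44 to 0.29 (Camk2a), -0.41 to 0.044 (Camk2b), -0.071 to 0.28 (Camk4) and -0.055 to 0.11 (Camk1d). For PVALB by region the ranges were -0.31 to 0.78 (Camk2a), -0.18 to 0.14 (Camk2b), -0.095 to 0.20 (Camk2d), -0.048 to 0.43 (Camk4) and -0.13 to 0.27 (Camkk1). For NGFC by region the ranges were -0.39 to 0.77 (Camk2a) and -0.59 to 0.40 (Camk4). Camkk1 had a value in only 5 of the 6 left-out fits there, since it fell under the filter on low counts in the other. For PVALB against SST the ranges were -0.099 to 0.30 (Camkk1). For NGFC against SST the ranges were 0.93 to 1.05 (Camk2d), -1.07 to -0.64 (Camk4), -0.21 to 0.013 (Camkk1) and 0.58 to 0.79 (Camkk2). For NGFC against PVALB the ranges were -0.28 to 0.070 (Camkk1). For glutamatergic against SST the ranges were -0.11 to 0.66 (Camk2d), -0.14 to 0.32 (Camk2g) and 0.70 to 1.24 (Camkk1).

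Depth limits the members with the fewest UMIs. Oligodendrocyte-like cells of WT libraries held 8 UMIs of Camkk1 and 18 of Camk1d, and null cortex 1 had 27 PVALB-like cells, so single UMIs move the values there.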
